A study of Mus musculus with 19 samples.

Results

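OT-I CD8 T cells taken from malignant liver lesions were compared with naive SV40-I CD8 T cells, by the group labels alone. The comparison uses 6 of 19 RNA sequencing libraries, 3 of each group, and all genes but the segments of the T cell receptor genes, which differ because the cells carry different receptors. Both groups are CD8 T cells with a transgenic receptor on the C57BL/6 background, so the cells of a group share a receptor. The OT-I receptor is specific for ovalbumin, and the SV40-I receptor for large T antigen of the virus SV40. OT-I cells are called bystanders here because they do not share the specificity of the SV40-I cells found in the lesions.

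The OT-I libraries are labelled as cells sorted for CD8 and Ly5.1, a congenic form of CD45, at days 20 to 21. The naive libraries are labelled as cells sorted for CD8 and low CD44, with no day given. SV40-I cells of the same days and lesion type, sorted for CD8 and Thy1.1 (3 libraries), served to show where OT-I cells differ from tumour-specific cells of the same days. Levels in SV40-I cells of days 8 to 9 that were low or high for PD1, LAG3 and CD39 (marker-low and marker-high, 3 libraries each) are given beside them for 12 genes. The labels used here do not say how or whether OT-I cells had met ovalbumin, and they do not say that replicates came from separate mice. P-values therefore measure the spread between these libraries, part of which may be technical. The source label reads splenocytes for every library, so the tissue rests on the titles. Receptor line, sort, day and lesion all differ between the groups and cannot be told apart, and naive OT-I cells were not analysed here.

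A naive CD8 T cell circulates through lymph nodes, which it enters with the help of the chemokine receptor CCR7, and it carries a quiescence programme kept by factors such as TCF1 and LEF1. After it meets antigen it switches on T-bet, Blimp-1, ID2 and ZEB2, makes granzymes, perforin and interferon gamma, and displays receptors for inflamed tissue. Cells that clear their antigen become memory cells, which keep survival genes and can be recalled. Cells that go on seeing antigen, as in a tumour, instead keep TOX and inhibitory receptors such as PD1 high, a state called exhaustion or dysfunction.

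The 6 libraries held 37006508 to 51599398 counts, and the OT-I libraries were slightly shallower (37006508 to 47024939) than the naive ones (45642986 to 51599398). A gene without counts in a library of this depth could still have stood at up to 0.0569 to 0.0745 CPM, the level that 3 counts give (CPM, a library's counts scaled by edgeR to a common total). Such limits cover counting error only. Transcripts of the mitochondrial genome made up 0.233 to 0.319% of each OT-I library and 0.199 to 0.307% of each naive library.

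Transcripts of other cells moved with the groups, and OT-I library 1 stood apart from OT-I libraries 2 and 3. The 12 hepatocyte genes summed to 17.4, 891 and 1625 CPM in OT-I libraries 1, 2 and 3, against 7.38, 3.59 and 2.96 CPM in the naive libraries. None of the 12 was at 0 in an OT-I library, and 10 of them were called higher. Red cell and platelet genes summed to 1796, 3321 and 1300.5 CPM in OT-I and 298, 53.9 and 34.2 CPM in naive libraries, of which Alas2 and Hbb-bt (2 of 9) were called higher. Neutrophil genes summed to 159, 63.2 and 429.8 against 18.5, 13.4 and 2.58 CPM, with 0 of 7 called by edgeR (4 at an unadjusted p under 0.05) and 4 by DESeq2 (median log2 fold change 4.23). Genes of natural killer (NK) cells summed to 5456, 3427 and 4904 against 1198, 1830.2 and 787 CPM, where Klrb1c and Nkg7 (2 of 6), which killer T cells express too, were called higher. Dendritic cell genes summed to 442, 347 and 387 against 12.8, 4.85 and 5.77 CPM, nearly all of it Itgax (Itgax and Xcr1, 2 of 6, higher). Macrophage genes summed to 337, 416 and 681 against 282, 142 and 109 CPM (1 of 10, Vsig4, higher), but their median log2 fold change was -0.35. Of these 10 macrophage genes, 5 had groups that did not overlap and 4 were at an unadjusted p under 0.05 by edgeR. C1qa, 1 of the 10, stood at 6.82, 4.4 and 11.7 CPM in OT-I libraries, and its naive level is not reported here. B cell genes summed to 1229, 1011 and 1016 against 3662, 3099.7 and 2959.8 CPM (Ighm, 1 of 7, lower). Endothelial and stellate genes summed to 56, 61.5 and 78.6 against 289, 211 and 364 CPM (Pecam1, 1 of 9, lower). Their median log2 fold change went the other way, at 4.24 (3.38 with genes at 0 set to their bounds). In OT-I libraries 5, 1 and 0 of these genes were at 0, and in naive libraries 4, 7 and 6. CD4 T cell genes summed to 35.8, 44.5 and 38.6 against 6.53, 2.98 and 1.96 CPM (Zbtb7b higher and Foxp3 lower, of 4). With the level of the hepatocyte list as a covariate 382 genes were higher and 140 lower in OT-I cells, and with mitochondrial and other-cell genes left out 811 and 356, where the fit reported below gave 827 and 359. Beyond the values given in these settings and with OT-I library 1 as the only OT-I library, the part of these transcripts in the results was not tested. The hepatocyte level was higher in every OT-I than in every naive library, so the covariate in part follows the contrast itself. A call lost in that fit may therefore reflect lost power, which the fit cannot tell from a part of liver transcripts. Of the 827 genes higher in OT-I cells, 51 had libraries 2 and 3 both at least 8 times above library 1, and none of the 100 with the smallest p did. OT-I library 1 stood above every naive library for 815 of the 827 and below every naive library for all 359 lower genes.

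**Figure D1:**
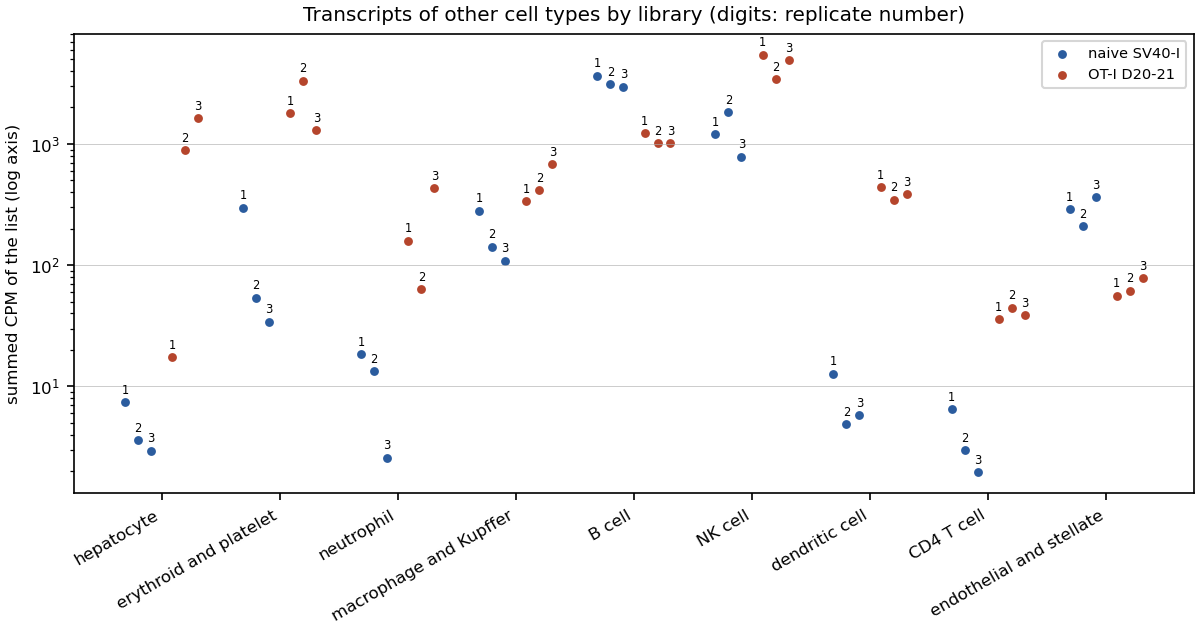
Summed CPM of the marker genes of 9 other cell types (log axis) in each naive SV40-I (blue) and OT-I (red) library, with digits for the replicate number. Hepatocyte transcripts summed to 17.4, 891 and 1625 CPM in OT-I libraries 1, 2 and 3 and to under 10 CPM in all naive libraries.

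Genes of T cell identity were present in all 6 libraries. Cd3e, a subunit of the T cell receptor complex, stood at 2505, 2159 and 2666 CPM in OT-I and 3270.0, 3415 and 3413 CPM in naive libraries, without overlap. The 10 identity genes had a median log2 fold change of -0.58. For 6 of them the groups did not overlap, against 28.1% of all tested genes. Of the 10, 8 were not called, where of all tested genes 5.09% were higher and 2.21% lower. The other two were lower in OT-I cells: the coreceptor gene Cd8a fell by 0.88 ± 0.17 on the log2 scale (SE, as for all such errors below; adjusted p = 0.00657) and the signalling chain gene Cd247 fell by 0.82 ± 0.17 (adjusted p = 0.00926). With the hepatocyte covariate neither was called (adjusted p = 0.162 for Cd8a and 0.292 for Cd247), nor with OT-I library 1 alone (0.163 and 0.313). Cd8a stood at 1829, 1725 and 1902 CPM in OT-I and 3498, 3482 and 3071 CPM in naive libraries, which did not overlap. In these bulk libraries, fewer cells of a type and less RNA per cell cannot be told apart.

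Most killing, chemokine and effector transcription factor genes examined were higher in OT-I cells from lesions than in naive cells, and genes of the naive state were in part lower. Of 16247 genes tested, edgeR called 827 higher (5.09%) and 359 lower (2.21%) in OT-I cells, together 1186 (7.3%), at an adjusted p under 0.05. For 4562 genes (28.1%) the 3 OT-I libraries lay wholly above or below the 3 naive ones. The median log2 fold change of all tested genes was 0.04. Of 24 lists of T cell genes, those of cytotoxic granules, NK-type receptors and effector transcription factors had the largest shares of members called higher (11 of 13, 9 of 12 and 9 of 15), the last level with tissue residency (6 of 10). Naive and central memory genes had the largest share called lower (5 of 15). With OT-I library 1 as the only OT-I library, its spread taken to be that of the other groups, 380 genes were higher (376 of them among the 827) and 92 lower (73 among the 359). Leaving out any 1 library of the 6 left 540 to 654 higher and 178 to 221 lower. Of 106 called genes followed singly through every setting, 32 lost their call with OT-I library 1 alone, 28 with the hepatocyte covariate and 22 where a fold of 2 had to be exceeded.

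**Figure D2:**
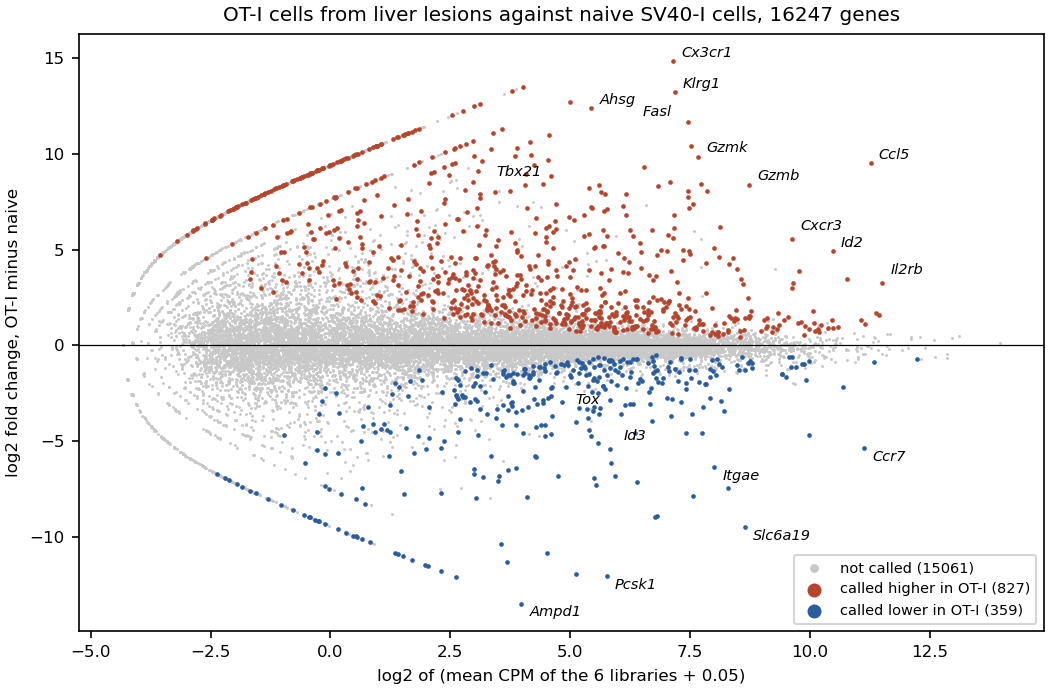
Log2 fold change of OT-I minus naive cells (vertical axis) against log2 of the mean CPM over the 6 libraries plus 0.05 (horizontal axis) for 16247 genes, with 827 called higher in red and 359 called lower in blue. Fasl, Gzmb, Ccl5 and Cxcr3 lie above the cloud at high levels, and Ccr7 and Slc6a19 below it.

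**Figure D3:**
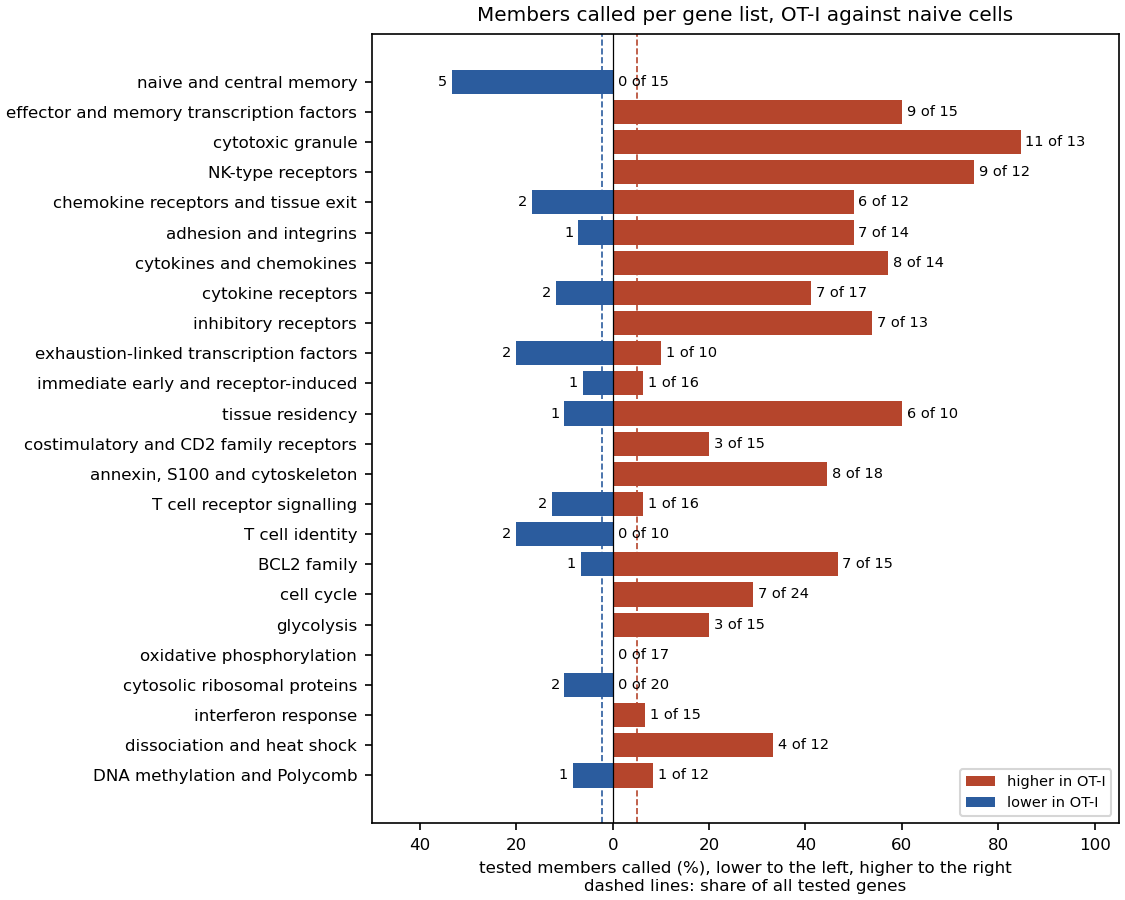
Share of tested members called higher (red, to the right) and lower (blue, to the left) in OT-I cells for 24 gene lists, with the number called and the number tested; dashed lines mark the 5.09% and 2.21% of all genes. Cytotoxic genes reach furthest right (11 of 13) and naive genes furthest left (5 of 15), while oxidative phosphorylation has none called of 17.

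Some genes of the naive state fell, among them 1 of lymph node homing. Ccr7 (chromosome 11, 99144196 to 99155077), the receptor that guides cells into lymph nodes, stood at 4563, 4044 and 4470.3 CPM in naive libraries 1, 2 and 3 and at 106, 80.6 and 131 CPM in OT-I libraries 1, 2 and 3, a change of -5.36 ± 0.89 on the log2 scale (adjusted p = 0.00218). Every naive library lay far above every OT-I library, but with OT-I library 1 as the only OT-I library Ccr7 was not called (-5.37, adjusted p = 0.132). Id3, a partner of E proteins found in naive and memory precursor cells, fell from 222, 246 and 125 to 12.1, 12.2 and 14 CPM (-3.95 ± 0.55, adjusted p = 0.000595), a call lost with OT-I library 1 alone (adjusted p = 0.057). The actin cross-linker gene Actn1 fell from 63.2, 70.2 and 99.8 to 4.73, 4.82 and 7.46 CPM (-3.78 ± 0.43, adjusted p = 0.000139). Another called gene, Dapl1, chosen after its values were seen (-4.42 ± 1.21, adjusted p = 0.0429), lost its call without any 1 of the 6 libraries (adjusted p from 0.0632 to 0.144).

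Tcf7 and Lef1, genes of quiescence factors, were lower in each OT-I library but were not called. Tcf7, which encodes TCF1, stood at 1283, 1102 and 1446 CPM in naive and 325, 402 and 274 CPM in OT-I libraries (-1.94 ± 0.83, adjusted p = 0.195). Lef1 stood at 1397, 1185 and 1412 against 361, 318 and 307 CPM (-2.02 ± 0.76, adjusted p = 0.135). Neither pair of groups overlapped. In a fit of the 6 libraries alone, the spread of the other groups was left out. There Tcf7 and Lef1 were called lower (adjusted p = 0.000699 and 0.000196). So was S1pr1 (-0.92, adjusted p = 0.00856), the receptor for leaving tissue into lymph and blood. With all 15 libraries S1pr1 stood at 1459, 1131 and 1489.6 CPM in naive and 685, 793 and 719 CPM in OT-I libraries (-0.89 ± 0.91, adjusted p = 0.662). Il7r, which encodes the receptor for the survival cytokine IL-7, overlapped between the groups, at 31.3, 67.9 and 179 CPM in OT-I and 57.2, 102 and 148 CPM in naive libraries, and the quiescence factor gene Klf2 did too, at 29.8, 20.3 and 19.6 and 18.3, 33.6 and 12.6 CPM. In all, 0 of the 15 naive and central memory genes were higher and 5 lower (median log2 fold change -2.02, against 0.04 for all genes). That count of lower genes was 11 in the fit of the 6 libraries, 9 with DESeq2 and 1 with OT-I library 1 alone.

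Of 15 genes of effector transcription factors 9 were higher and none lower (median 3.55). Tbx21 (chromosome 11, 97098071 to 97115331), which encodes T-bet, a driver of effector and interferon gamma genes, stood at 0.0949, 0.109 and 0.104 CPM in naive and 43, 64.4 and 37.4 CPM in OT-I libraries (8.84 ± 0.86, adjusted p = 3.84e-05). Id2, an inhibitor of E proteins that favours effector fates, rose from 104, 127 and 44.2 to 3440.0, 2193 and 2645 CPM (4.91 ± 0.42, adjusted p = 1.35e-05). Bhlhe40, a repressor used by resident and cytokine-producing T cells, rose by 6.13 ± 0.42 to 285 ± 42.6 CPM (SD, n = 3; adjusted p = 3.1e-06). For none of these genes did an OT-I library come near a naive one. Zfp683, which encodes HOBIT, a factor of resident and long-lived effector cells, rose from 3.42, 3.09 and 5.42 to 46.2, 45.1 and 55.6 CPM (3.62 ± 0.61, adjusted p = 0.00232).

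The factors Zeb2 and Eomes were called by narrow margins. Zeb2, which acts with T-bet in terminal effector cells, stood at 6.04, 23.2 and 26.2 CPM in OT-I libraries 1, 2 and 3 and at 0.835, 0 and 0 CPM in naive libraries (6.02 ± 1.45, adjusted p = 0.023), lowest in OT-I library 1, which was poorest in hepatocyte transcripts. The call was lost without OT-I library 2, OT-I library 3, naive library 2 or naive library 3 (adjusted p from 0.0515 to 0.0608), and without naive library 1, where all naive counts lay, the change was 12.68 (adjusted p = 0.000473). With OT-I library 1 as the only OT-I library Zeb2 was not called (4.39, adjusted p = 0.31). Eomes, a T-box factor of memory cells, stood at 9.57, 10.5 and 5.78 against 0.531, 0.784 and 0.813 CPM (3.60 ± 1.01, adjusted p = 0.0475), and its call was lost without any 1 of the 6 libraries (adjusted p from 0.0714 to 0.162). Prdm1, which encodes Blimp-1, was not called, at 23.8, 41.7 and 37.1 CPM in OT-I and 0.038, 3.83 and 4.88 CPM in naive libraries (adjusted p = 0.1), although the groups did not overlap. Of the 15 factors 5 were called higher with OT-I library 1 alone.

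**Figure D4:**
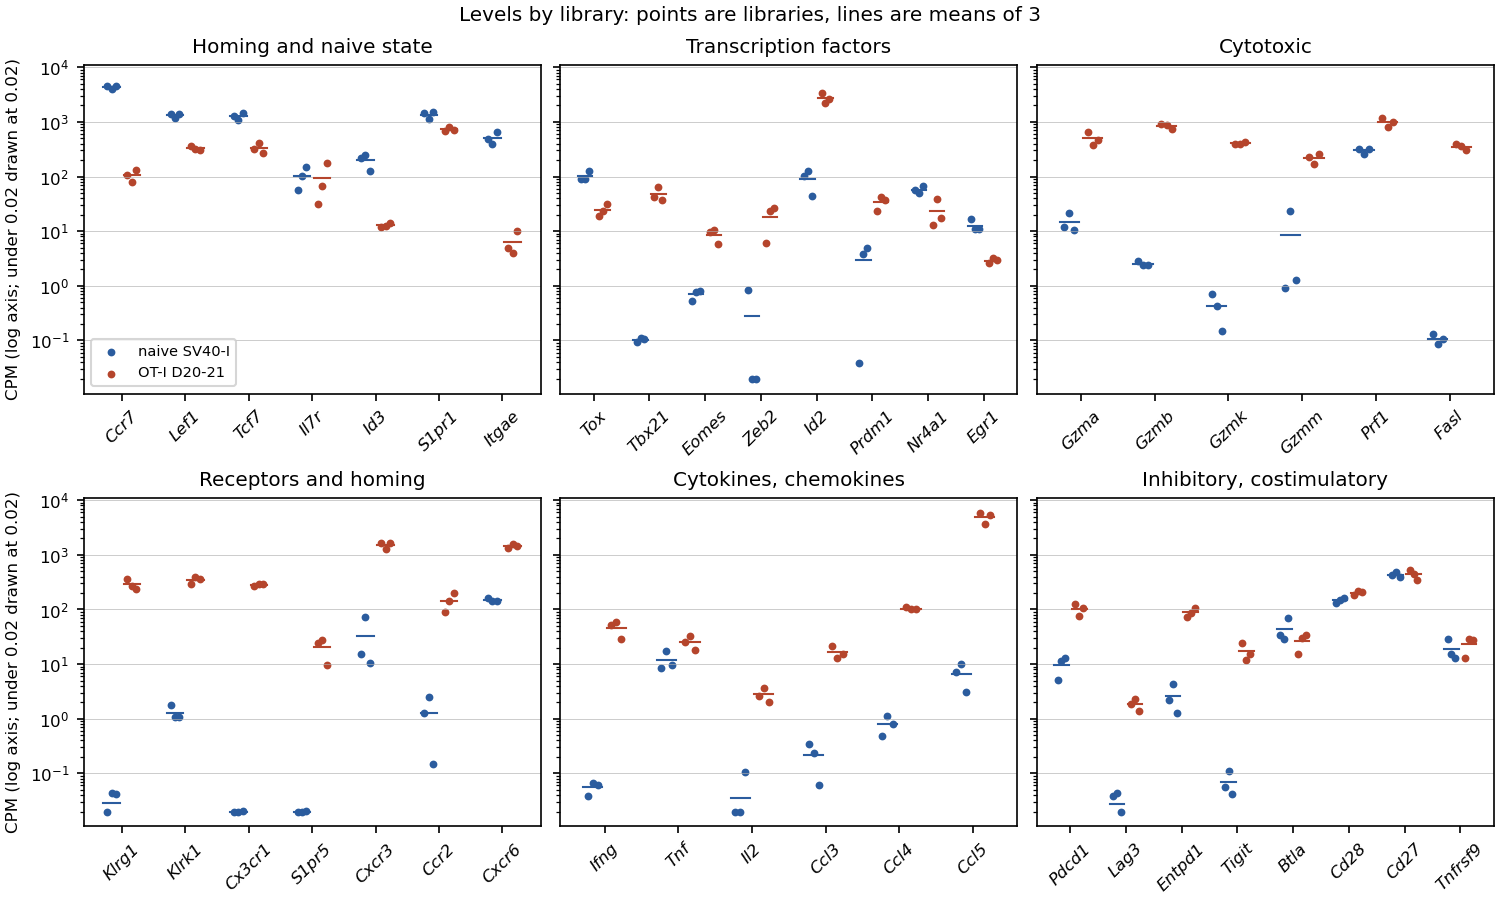
CPM of 42 genes in each library (points, log axis, values under 0.02 drawn at 0.02) with the mean of 3 (lines), for naive SV40-I (blue) and OT-I cells (red). Red points of Fasl, Gzmk, Klrg1 and Cx3cr1 lie far above the blue ones, whereas those of Il7r, Cd27, Btla and Tnfrsf9 overlap them.

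Killing genes rose together: 11 of 13 cytotoxic granule genes were higher and none lower (median 2.67). Fasl (chromosome 1, 161780689 to 161788495), the ligand of the death receptor FAS, had the smallest p of all genes. It stood at 0.133, 0.0871 and 0.104 CPM in naive libraries and 389, 365 and 308 CPM in OT-I libraries (11.63 ± 0.45, adjusted p = 2.6e-08). Gzmb, which encodes granzyme B, a caspase-activating protease, rose from 2.83, 2.35 and 2.4 to 918, 888 and 729.7 CPM (8.38 ± 0.53, adjusted p = 2.01e-06). Gzmk, the granzyme of memory-like effector cells, rose from 0.721, 0.435 and 0.146 to 389, 394 and 432 CPM (9.85 ± 0.82, adjusted p = 1.05e-05). Within the OT-I group these 3 genes were even, and naive libraries held under 3 CPM of each. Gzma, a tryptase-like granzyme, rose from 11.8, 21.6 and 10.4 to 650.4, 375 and 466 CPM (5.09 ± 0.75, adjusted p = 0.000883). Naive libraries held more transcripts of perforin than of any granzyme described here. Prf1, which encodes perforin, the pore that admits granzymes, was already at 324, 263 and 320.4 CPM in naive libraries and stood at 1184, 798 and 979.7 CPM in OT-I libraries (1.71 ± 0.27, adjusted p = 0.0014). Gzmm stood at 0.892, 22.9 and 1.25 CPM in naive libraries 1, 2 and 3, of which library 2 was far above the others, and at 232, 168 and 254 CPM in OT-I libraries (4.71 ± 1.16, adjusted p = 0.0262). The Gzmm call was lost without OT-I library 1, OT-I library 3, naive library 1 or naive library 3 (adjusted p from 0.0546 to 0.0785) and in the fit of the 6 libraries (adjusted p = 0.0555). Without naive library 2 the change was 7.67 for Gzmm (adjusted p = 0.000866), and without naive library 1 it was 10.44 for Gzmk. Among further members chosen after their values were seen, Serpinb9, an inhibitor that shields the killer from granzyme B, rose by 2.72 ± 0.31 (adjusted p = 0.000127), the granule gene Ctsw by 1.79 ± 0.23 (adjusted p = 0.000351) and the granule gene Nkg7 by 1.71 ± 0.39 (adjusted p = 0.0176), the last a call lost without OT-I library 1, OT-I library 3, naive library 1 or naive library 3 (adjusted p from 0.0515 to 0.0755). Lamp1 and Gzmc were the members not called (adjusted p = 0.521 and 0.132).

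The sequences just upstream of a RefSeq start of Gzmk and of Gzmm are shown because these granzyme genes rose and their windows hold the letters of the T-box core, the element that T-bet and EOMES bind. They come from RefSeq on GRCm38.p6, the build of the deposited tables, and run 250 bases up to the start, 5′ to 3′ on the gene's strand, with the core GGTGTGA in capitals. Gzmk starts here on the minus strand (chr13:113180966-113181215), with the core from position -75 counted from the start. This start lies within the span of Gzmk in the deposited tables (113171608 to 113225908). The window of Gzma and a window of Gzmb, genes that rose too, held no T-box core. Gzmm is given for the downstream of its RefSeq starts, which lies within the gene on the plus strand (chr10:79693576-79693825), with the core from -189.
Gzmk: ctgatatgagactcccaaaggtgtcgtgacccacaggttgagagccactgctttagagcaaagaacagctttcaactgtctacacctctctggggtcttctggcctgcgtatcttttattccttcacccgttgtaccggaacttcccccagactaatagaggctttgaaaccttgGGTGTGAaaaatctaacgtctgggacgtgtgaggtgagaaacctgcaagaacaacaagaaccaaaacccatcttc
Gzmm: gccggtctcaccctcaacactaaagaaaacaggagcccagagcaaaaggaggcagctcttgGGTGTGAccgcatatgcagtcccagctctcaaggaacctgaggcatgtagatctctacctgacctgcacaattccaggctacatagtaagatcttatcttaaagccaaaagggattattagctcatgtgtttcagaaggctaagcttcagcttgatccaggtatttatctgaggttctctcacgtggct
The T-box core, GGTGTGA or its reverse complement TCACACC, was found in 31 of 736 windows of higher genes (4.21%), 8 of 335 windows of lower genes (2.39%) and 445 of 12579 windows of all tested genes (3.54%), over 250 bases before to 50 after the start. The forkhead core TGTTTAC or GTAAACA, which FOXO1 and its relatives bind and whose letters cannot overlap those of the T-box core, was found in 3.13%, 1.49% and 2.65% of the same windows. Windows were matched for 9869 of 16247 tested genes. A match describes letters and shows no binding.

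NK-type receptor genes rose from near nothing, with 9 of 12 higher and none lower (median 7.64, or 6.55 with genes at 0 in naive cells set to their lower bounds). Klrg1 (chromosome 6, 122270596 to 122282882), the inhibitory lectin that marks terminal effector cells, stood at 0, 0.0435 and 0.0417 CPM in naive and 364, 264 and 240.5 CPM in OT-I libraries (13.22 ± 1.49, adjusted p = 0.000109). Klrk1, which encodes the activating receptor NKG2D, rose from 1.77, 1.07 and 1.06 to 295, 397 and 364 CPM (8.08 ± 0.54, adjusted p = 2.62e-06). Klrb1c, which encodes NK1.1, rose from 1.99, 1.63 and 1.56 to 671, 310.2 and 395 CPM (8.05 ± 0.55, adjusted p = 3.06e-06). None of these was above 2 CPM in a naive library. Klrc1, which encodes the inhibitory receptor NKG2A, rose from 0.0759, 0.697 and 0.0417 to 298, 399 and 398 CPM (10.41 ± 1.03, adjusted p = 4.34e-05), and reads of its near-identical neighbour Klrc2 may be shared with it. Without naive library 2 its change was 12.52. Klrd1, which encodes CD94, the partner of NKG2A, was not called, at 310.1, 286 and 186 CPM in OT-I and 84, 169 and 70.1 CPM in naive libraries (adjusted p = 0.148). These receptors are shared with NK cells, whose own receptor gene Ncr1 overlapped between the groups, at 0.964, 2.04 and 0.0213 CPM in OT-I and 0.778, 1.2 and 0.25 CPM in naive libraries. Ncr1 is 1 of 6 NK cell genes, of which 2 were called higher and none lower, where 5.09% of all tested genes were higher. The groups did not overlap for 4 of the 6 (median 1.25). The part of NK cells in these values was not tested.

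Of 12 chemokine receptor and exit genes 6 were higher and 2 lower (median 2.87). Those that rose included receptors for inflamed tissue and the exit receptor gene S1pr5, while the exit receptor gene S1pr1, given above, was not called and stood lower in each OT-I library. A gut and a skin receptor gene fell. Cx3cr1 (chromosome 9, 119901616 to 120069879), the fractalkine receptor of blood-borne effector cells, stood at 264, 289.7 and 292 CPM in OT-I libraries and had 1 count in all naive libraries together, a ratio of 41338 (95% counting interval 7419 to 1632800; adjusted p = 0.000235). S1pr5, the exit receptor of NK and effector cells, likewise had 1 naive count and stood at 24.4, 28.1 and 9.79 CPM in OT-I libraries (ratio 2974, interval 533 to 117521; adjusted p = 0.00191). Cxcr3, the receptor for interferon-induced chemokines, rose from 15.2, 71.5 and 10.5 to 1677, 1289 and 1666 CPM (5.57 ± 0.65, adjusted p = 0.000149). OT-I libraries were even for Cx3cr1 and Cxcr3 and uneven for S1pr5, and no library overlapped the naive ones. Cxcr6, the receptor by which T cells stay in liver, rose from 165, 143 and 140.0 to 1311, 1597 and 1445 CPM (3.28 ± 0.51, adjusted p = 0.00138). Ccr2 stood at 88.2, 143 and 196 against 1.27, 2.46 and 0.146 CPM (6.78 ± 1.48, adjusted p = 0.0135), a call lost without naive library 1 or naive library 3 (adjusted p from 0.0511 to 0.0654). Naive library 2 held most of the naive transcripts of Cxcr3 and Ccr2, and without it the change was 6.91 for Cxcr3 and 7.64 for Ccr2.

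The gut receptor gene Ccr9 fell from 333, 329 and 465 CPM in naive to 0.047, 0.298 and 4.54 CPM in OT-I libraries (-7.84 ± 1.67, adjusted p = 0.0115), highest in OT-I library 3, without which the change was -11.08. Its call was lost without OT-I library 2 (adjusted p = 0.0541). Ccr4, a receptor of skin-homing cells, had 3 counts in all OT-I libraries together and stood at 5.85, 6.23 and 4.86 CPM in naive libraries (a ratio of naive over OT-I of 244, interval 83 to 1185; adjusted p = 0.0223). Its call was lost without OT-I library 1, OT-I library 2, OT-I library 3, naive library 1 or naive library 2 (adjusted p from 0.0506 to 0.0829).

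Of 14 adhesion genes 7 were higher, 1 was lower and 6 were not called (median 1.22). Itgae (chromosome 11, 73090583 to 73147446), which encodes CD103, the integrin that holds T cells to epithelium, fell from 488, 393 and 648 to 4.84, 3.93 and 10.00 CPM (-6.35 ± 1.23, adjusted p = 0.00631). Its call was lost with the hepatocyte covariate (adjusted p = 0.0757) and with OT-I library 1 alone (adjusted p = 0.193). Itgb1, the shared chain of several matrix-binding integrins, rose from 24.6, 8.6 and 18.7 to 193, 396 and 190.0 CPM (3.91 ± 0.47, adjusted p = 0.00021). Itgb2, the chain that forms LFA-1, rose from 1549.8, 1095 and 1515 to 4858, 3585 and 4145 CPM (1.6 ± 0.21, adjusted p = 0.00037). Cd44, at 239, 301 and 297 CPM in OT-I and 10.3, 0.849 and 5.94 CPM in naive libraries (5.61 ± 0.71, adjusted p = 0.000286), encodes the protein by whose low level the naive cells were sorted. Without naive library 1 its change was 6.36. Itga4, a chain of VLA-4, was not called, at 66.8, 113 and 160.3 against 43.1, 45.8 and 47.9 CPM (adjusted p = 0.102), but was called in the fit of the 6 libraries (adjusted p = 0.0411).

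Of 10 tissue residency genes 6 were higher and 1, Itgae, lower (median 3.45). The signalling brake Rgs1, a mark of cells held in tissue, rose from 1.06, 2.09 and 0.438 to 15.3, 54.3 and 20.7 CPM (4.65 ± 0.63, adjusted p = 0.00048), highest in OT-I library 2. The change was 3.93 without that library and 5.32 without naive library 2. Cd69, which holds cells in tissue by opposing S1PR1, overlapped between the groups, at 95.8, 156 and 132 CPM in OT-I and 127, 135 and 133 CPM in naive libraries (adjusted p = 0.987). Cxcr6 and Zfp683, described above, belong to this list too. Of the 10 genes 3 were called higher with OT-I library 1 alone.

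Of 14 chemokine and cytokine genes 8 were higher and none lower (median 4.47, or 4.04 with genes at 0 in naive cells at their bounds). Ccl5 (chromosome 11, 83525778 to 83530518), a chemokine that memory cells store as transcript, stood at 7.04, 9.91 and 3.06 CPM in naive and 5796, 3696 and 5279.6 CPM in OT-I libraries (9.53 ± 0.89, adjusted p = 2.76e-05). Ccl4, a chemokine of activated killer cells, rose from 0.493, 1.11 and 0.813 to 109, 101 and 101 CPM (7.01 ± 0.37, adjusted p = 3.04e-07). Its relative Ccl3 rose from 0.342, 0.239 and 0.0625 to 21, 12.7 and 15.5 CPM (6.23 ± 0.54, adjusted p = 1.47e-05). All 3 chemokines separated the groups without overlap, and Ccl4 was the most even of them among OT-I libraries. Ifng, which encodes interferon gamma, the main effector cytokine, rose from 0.038, 0.0653 and 0.0625 to 51.8, 58.7 and 28.6 CPM (9.65 ± 0.84, adjusted p = 1.44e-05). Il2, the growth factor that memory cells can make again, rose from 5 counts, all in naive library 3, to 2.66, 3.73 and 2.0 CPM in OT-I libraries (6.23 ± 1.25, adjusted p = 0.00707), or by 9.96 without naive library 3. Tnf was not called, at 25.4, 32.6 and 17.9 CPM in OT-I and 8.48, 17.2 and 9.78 CPM in naive libraries (adjusted p = 0.176), although the groups did not overlap.

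The receptors for these and other cytokines changed in both directions, with 7 of 17 higher and 2 lower (median 1.72). Il2rb, the chain shared by the IL-2 and IL-15 receptors, rose from 545, 555 and 547 to 5584, 3862 and 6488 CPM (3.27 ± 0.37, adjusted p = 0.000115). Il15ra, which presents IL-15, rose by 1.72 ± 0.19 (adjusted p = 0.000115). Both were above every naive library in every OT-I library. Ifngr1, the ligand-binding chain of the interferon gamma receptor, rose from 153, 176 and 196 to 1500.0, 1515 and 1187 CPM (3.00 ± 0.27, adjusted p = 2.13e-05), and Il10ra, the IL-10 receptor chain, by 3.46 ± 0.37 (adjusted p = 8.23e-05). Receptors of the innate cytokine IL-18 stood far apart between the groups: Il18rap rose from 1.23, 2.22 and 0.271 to 408, 446 and 409 CPM (8.40 ± 1.38, adjusted p = 0.002). Its partner Il18r1 stood at 76.8, 57.8 and 53.1 against 10.5, 6.47 and 8.07 CPM without a call (adjusted p = 0.17), and was called in the fit of the 6 libraries (adjusted p = 0.000724). Without naive library 2 the change of Il18rap was 9.11. Il6st, the signalling chain of the IL-6 family receptors, fell from 525, 342 and 758 to 29.2, 77.7 and 45.4 CPM (-3.42 ± 0.58, adjusted p = 0.00264). Il27ra fell by 0.61 ± 0.17 (adjusted p = 0.0451), a call lost without OT-I library 1, OT-I library 2, OT-I library 3, naive library 1 or naive library 3 (adjusted p from 0.0916 to 0.179).

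Inhibitory receptor genes were in part higher in OT-I than in naive cells. Of 13 inhibitory receptor genes 7 were higher and none lower (median 2.00). Pdcd1 (chromosome 1, 94038305 to 94052553), which encodes PD1, stood at 5.12, 11.2 and 12.7 CPM in naive and 127, 74.6 and 108 CPM in OT-I libraries (3.41 ± 0.39, adjusted p = 0.000124). Tigit, a receptor that competes for the ligands of CD226, rose from 0.0569, 0.109 and 0.0417 to 24, 12 and 15.5 CPM (7.91 ± 0.57, adjusted p = 4.58e-06). Entpd1, which encodes CD39, an enzyme that breaks down extracellular ATP, rose from 2.16, 4.25 and 1.25 to 73.6, 86.3 and 107 CPM (5.12 ± 0.59, adjusted p = 0.000148). Each separated the groups by more than the spread within them. Lag3, a receptor for MHC class II, rose from 0.038, 0.0435 and 0 CPM but only to 1.86, 2.26 and 1.36 CPM (5.93 ± 0.64, adjusted p = 7.32e-05). Btla, which is displayed by naive cells, overlapped between the groups, at 15.4, 30.04 and 33.4 CPM in OT-I and 33.6, 29.1 and 71.2 CPM in naive libraries.

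Tox (chromosome 4, 6686353 to 6991557, minus strand), which encodes the factor that sets up exhaustion, stood at 91.7, 89.8 and 124 CPM in naive libraries and at 19.2, 23.3 and 31.2 CPM in OT-I libraries (-2.05 ± 0.36, adjusted p = 0.00305). Every OT-I library lay below every naive one, and no single library ended the call. In the fit with OT-I library 1 alone Tox was not called (-2.41, adjusted p = 0.0524). Of 10 exhaustion-linked factors tested 1 was higher and 2 lower (median 0.12), where of all tested genes 5.09% were higher and 2.21% lower. The 1 higher member does not set the list apart. Besides Tox, Ikzf2, which encodes HELIOS, was lower. Ikzf2 had 1 count in all OT-I libraries together and stood at 2.98, 4.16 and 2.5 CPM in naive libraries (a ratio of naive over OT-I of 414, interval 74 to 16386; adjusted p = 0.00238). The Ikzf2 call was lost with the hepatocyte covariate (adjusted p = 0.0518) and with OT-I library 1 alone (adjusted p = 0.0919). Nr4a3, an orphan receptor switched on by receptor signals, was higher at 1.6, 0.795 and 2.49 against 0.133, 0.0218 and 0.0625 CPM (4.43 ± 0.98, adjusted p = 0.0138), a call lost without naive library 2 or naive library 3 (adjusted p from 0.0635 to 0.0644). Its relative Nr4a1 was not called, at 13.1, 38.4 and 17.5 CPM in OT-I and 56.9, 49.9 and 65.7 CPM in naive libraries (adjusted p = 0.0955). Without naive library 1 the change of Nr4a3 was 5.18.

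Of 16 immediate early and receptor-induced genes, which follow a recent receptor signal, 1 was higher and 1 lower (median -0.06). Of all tested genes 5.09% were higher and 2.21% lower, so these counts do not set the list apart. Egr1, a factor induced within minutes of a receptor signal, stood at 16.4, 10.7 and 10.8 CPM in naive and 2.56, 3.2 and 2.92 CPM in OT-I libraries (-2.13 ± 0.48, adjusted p = 0.0163), a call lost without OT-I library 1, OT-I library 2, OT-I library 3 or naive library 1 (adjusted p from 0.0572 to 0.0669). Dusp5, a phosphatase that restrains ERK, rose by 2.83 ± 0.38 to 14.4 ± 3.01 CPM (adjusted p = 0.000441). Of 16 signalling genes, the kinase gene Fyn was higher (1.65 ± 0.25, adjusted p = 0.00113), and Cd8a and Cd247, given above, were lower (median -0.25).

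Of 15 costimulatory receptor genes 3 were higher and none lower (median 0.33), where of all tested genes 5.09% were higher and 2.21% lower. Cd27, a TNF receptor family costimulator, stood at 534, 441 and 340.1 CPM in OT-I and 431, 481 and 387 CPM in naive libraries (0.02 ± 0.27, adjusted p = 0.993). Tnfrsf9, a costimulator induced by antigen, stood at 12.7, 28.7 and 27.8 against 29.1, 15.5 and 13.2 CPM (0.26 ± 0.32, adjusted p = 0.73). Both pairs of groups overlapped. Cd28, the classic costimulator, stood at 181, 213 and 205 against 134, 151 and 162 CPM (0.42 ± 0.73, adjusted p = 0.824). Slamf7, a self-binding receptor of killer cells, rose from 2.52, 2.68 and 3.79 to 117, 165 and 189 CPM (5.71 ± 0.27, adjusted p = 8.77e-08). The calls of Cd48 and Tnfrsf1b, at 1.43 ± 0.33 and 1.45 ± 0.34 (adjusted p = 0.0173 and 0.0194), were each lost in some fits. That of Cd48, a ligand of CD2 family receptors, was lost without OT-I library 1, naive library 1 or naive library 3 (adjusted p from 0.063 to 0.0789), and that of Tnfrsf1b, a receptor of TNF, without OT-I library 1, naive library 1 or naive library 2 (adjusted p from 0.0608 to 0.0888).

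Of 15 BCL2 family genes, which hold protective and killing members, 7 were higher and 1 lower (median 1.21). Bcl2l1, which encodes BCL-XL, a guard of the mitochondrial membrane, rose from 57.1, 66.8 and 74.2 to 287, 223 and 311 CPM (2.05 ± 0.20, adjusted p = 4.19e-05). Bcl2 itself stood at 111, 81.2 and 145 against 21.2, 37.5 and 26.3 CPM (1.99 ± 0.51, adjusted p = 0.0327), a call lost without OT-I library 1, OT-I library 3, naive library 1, naive library 2 or naive library 3 (adjusted p from 0.063 to 0.13). Bcl2a1d, a protective member with near-identical copies that may share its reads, rose by 4.22 ± 0.49 (adjusted p = 0.000136). Bid, a killer member, rose by 0.90 ± 0.15 (adjusted p = 0.00192), and the killer gene Bmf fell by 3.30 ± 0.69 (adjusted p = 0.00992), a call lost without OT-I library 2 (adjusted p = 0.0535) and a change of -4.19 without OT-I library 3. With OT-I library 1 alone 4 were higher and none lower.

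Cytoskeletal and S100 genes, which mark antigen-experienced T cells, were higher for 8 of 18 members and lower for none (median 1.86). S100a6, a calcium-binding protein gene, rose from 2.37, 4.35 and 0.605 to 447, 249.7 and 375 CPM (7.19 ± 0.72, adjusted p = 4.81e-05). S100a4, its neighbour, rose from 0.664, 0.74 and 0.271 to 60.7, 33.6 and 57.8 CPM (6.50 ± 0.77, adjusted p = 0.000164). Ahnak, a large scaffold gene, rose from 1.92, 3.55 and 4.17 to 229.9, 217 and 169.8 CPM (6.00 ± 0.46, adjusted p = 6.93e-06). OT-I library 2 was the lowest of its group for both S100 genes, and all OT-I libraries lay above all naive ones. The membrane-binding Anxa2 rose by 4.26 ± 0.53 (adjusted p = 0.000271), the lectin gene Lgals1 by 3.18 ± 0.63 (adjusted p = 0.00774) and the filament gene Vim by 1.85 ± 0.18 (adjusted p = 4.27e-05). Naive library 2 held the most of the first 2 and of S100a6, and without it the changes were 5.07 for Anxa2, 3.87 for Lgals1 and 7.90 for S100a6.

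Division genes were higher for 7 of 24 members and lower for none (median 1.16). Their sums overlapped, at 1641, 1318 and 1737 CPM in OT-I and 1426, 1055 and 1325 CPM in naive libraries. The members named here stood at 45.2 CPM or less. Rrm2, which makes the building blocks of DNA, stood at 45.2, 44.7 and 43.1 CPM in OT-I and 9.81, 4.4 and 2.67 CPM in naive libraries (2.98 ± 0.39, adjusted p = 0.000362), or 3.65 higher without naive library 1. Plk1, a mitotic kinase gene, stood at 15.2, 14.2 and 17 against 2.73, 3.68 and 2.5 CPM (2.38 ± 0.32, adjusted p = 0.000416), and the cyclin gene Ccnb2 at 7.24, 8.27 and 13.8 against 1.39, 0.522 and 1.1 CPM (3.28 ± 0.43, adjusted p = 0.000412). Mki67, the usual marker of dividing cells, was not called, at 0.0235, 1.02 and 0.917 CPM in OT-I and 0.19, 0 and 0 CPM in naive libraries (adjusted p = 0.338).

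Metabolic genes divided by list, where of all tested genes 5.09% were higher and 2.21% lower. Of 15 glycolysis genes 3 were higher (median 0.33): Pfkp, a phosphofructokinase gene (1.34 ± 0.14, adjusted p = 8.23e-05), Slc2a3, a glucose transporter gene (1.44 ± 0.28, adjusted p = 0.00641, or 0.0605 with the hepatocyte covariate) and Hk2, a hexokinase gene (2.68 ± 0.47, adjusted p = 0.00343). None of 17 oxidative phosphorylation genes was called by edgeR (median -0.27, 2 at an unadjusted p under 0.05), and 1 was called lower by DESeq2. Of 20 cytosolic ribosomal protein genes 2 were called lower by edgeR (Rps20 and Rpl3) and 11 by DESeq2, with a median of -1.01 and groups that did not overlap for 15 of 20, against 28.1% of all genes. The calls of Rps20 (-1.66 ± 0.43, adjusted p = 0.0351) and Rpl3 (-0.97 ± 0.26, adjusted p = 0.0392) did not hold in every fit: that of Rps20 was lost without OT-I library 1, OT-I library 2, OT-I library 3, naive library 1 or naive library 2 (adjusted p from 0.0565 to 0.172), and that of Rpl3 without OT-I library 1, OT-I library 2, naive library 1 or naive library 2 (adjusted p from 0.0802 to 0.172). Naive library 2 was the highest for both, at 294, 607 and 208 CPM of Rps20 and 1119, 1594 and 924 CPM of Rpl3 in naive libraries 1, 2 and 3.

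Besides Cx3cr1 and Klrg1, the 8 largest rises held Plcd1 (chromosome 9, 119071527 to 119093502), a phospholipase C gene with no count in naive libraries and 42.2, 20.4 and 34 CPM in OT-I libraries, at least 1586-fold higher where 3 counts in the whole naive group are taken as the limit. Car5b (chromosome X, 163976822 to 164027997), which encodes a mitochondrial carbonic anhydrase, had 1 naive count and stood at 72.5, 59.6 and 58.6 CPM in OT-I libraries (ratio 9303, interval 1669 to 367477). No OT-I library was near the naive level for either gene. Ambp and Ahsg are secreted products of hepatocytes: Ambp stood at 1.36, 26.2 and 55 CPM (at least 1390-fold higher) and Ahsg at 2.73, 89.5 and 168 CPM (ratio 6543, interval 1811 to 54035) in OT-I libraries 1, 2 and 3, in the order of the summed hepatocyte transcripts. With OT-I library 1 alone neither was called (adjusted p = 0.105 for Ambp and 0.0924 for Ahsg). The clone-named locus RP24-95J4.3 (chromosome 5, 138341961 to 138343557, plus strand) was at least 861-fold higher and RP23-449F12.9 (chromosome 7, 3451357 to 3475020, plus strand) at least 782-fold higher.

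Ampd1 (chromosome 3, 103074014 to 103099720), which encodes AMP deaminase, had no count in OT-I libraries and stood at 37.4, 32.4 and 24.8 CPM in naive libraries, at least 1371-fold lower. Pcsk1 (chromosome 13, 75089826 to 75134861), a prohormone-cleaving protease gene, stood at 89.4, 120.4 and 116 CPM in naive libraries and had 3 counts in OT-I libraries (ratio of naive over OT-I 4663, interval 1595 to 22612). Slc6a19 (chromosome 13, 73679745 to 73704865), a neutral amino acid transporter gene, fell from 705, 665 and 1033 to 0.0941, 0.77 and 2.49 CPM (-9.47 ± 1.32, adjusted p = 0.000598), with a change of -10.85 without OT-I library 3. Naive libraries were even for all 3 genes. The calls of Ampd1 and Pcsk1 were lost with OT-I library 1 alone (adjusted p = 0.0546 and 0.051). Trpm1, a cation channel gene, fell from 24.5, 23.9 and 21.9 CPM to 2 counts (ratio 1521, interval 421 to 12565). Of the clone-named loci that fell, RP23-469H5.3 (chromosome 3, 107090880 to 107098401, plus strand; ratio 4550, interval 1259 to 37575) overlaps RP23-469H5.2 on the other strand, which was also called lower, and without strand the reads of the pair cannot be told apart. RP23-42O8.9 (chromosome 5, 65911624 to 65915946, plus strand; ratio 3327, interval 597 to 131442) lies 14924 bases from Rhoh, a gene called lower too. RP24-353A8.2 (ratio 1984, interval 679 to 9624) and RP23-383A19.1 (at least 516-fold lower) overlap no tested gene, and the call of the latter was lost with the hepatocyte covariate (adjusted p = 0.0983). Their nearest tested genes, Slc30a9 at 1944 bases and RP24-545I9.2 at 87605 bases, were not called. Neither were the nearest tested genes of the clone-named loci that rose.

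Against SV40-I cells of the same days, OT-I cells differed in both directions for the 59 genes set out for this comparison: 23 were higher and 11 lower, where of all 16247 genes 669 (4.12%) were higher and 792 (4.87%) lower. Both comparisons share the OT-I libraries, so they are given side by side and not as support for each other. Genes of naive and memory cells were higher in OT-I cells. Il7r stood at 0, 0.0736 and 0.129 CPM in SV40-I libraries 1, 2 and 3 of days 20 to 21, below every OT-I library (10.31 ± 1.32 for OT-I minus SV40-I, adjusted p = 0.000375). Lef1 stood at 1.51, 0.331 and 2.84 CPM there (7.72 ± 0.99, adjusted p = 0.000394) and Tcf7 at 2.26, 2.45 and 1.01 CPM (7.45 ± 1.07, adjusted p = 0.000881). S1pr1 (7.63 ± 1.21), Klf2 (5.74 ± 0.99) and Ccr7 (3.81 ± 0.83) were higher in OT-I cells too, with adjusted p of 0.00159, 0.00264 and 0.0119. Without SV40-I library 2 these changes were 9.58, 7.58 and 4.53. That of Il7r ran from 9.42 without OT-I library 3 to 11.05 without SV40-I library 3, where that of Lef1 was 8.50. The receptor genes Cd28 (3.95 ± 0.82, adjusted p = 0.00909) and Btla (4.62 ± 0.70, adjusted p = 0.00115) were higher in OT-I cells as well.

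Effector genes were in part higher in OT-I cells and in part not called. Klrg1 stood at 1.32, 0.589 and 1.31 CPM in SV40-I libraries (8.08 ± 1.14, adjusted p = 0.000739), S1pr5 at 0.0497, 0.0368 and 0 CPM (9.38 ± 1.66, adjusted p = 0.00301) and Gzmm at 1.94, 0.552 and 1.46 CPM (7.38 ± 1.32, adjusted p = 0.00357). Il18rap (6.83 ± 1.28), Itgb1 (3.42 ± 0.46) and S100a4 (4.77 ± 0.70) were likewise higher in OT-I cells (adjusted p = 0.00488, 0.000562 and 0.000968), with 7.62 for Il18rap without SV40-I library 3. Il2 was higher by 5.17 ± 1.15 (adjusted p = 0.0126), or 4.56 without SV40-I library 2. Gzmb, Gzmk, Prf1, Fasl, Ifng, Tbx21 and Ccl5 passed the test against naive cells but not against SV40-I cells (adjusted p from 0.0793 for Fasl to 1 for Ccl5), where their log2 differences ran from -0.85 ± 0.28 (Fasl) to 0.77 ± 0.53 (Ifng). For Ccl5 that difference was -0.01 ± 0.62. Cx3cr1 (4.69 ± 1.08, adjusted p = 0.0164) was higher in OT-I cells but not called without SV40-I library 1 or SV40-I library 3 (adjusted p from 0.0535 to 0.0711).

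Of the other calls against SV40-I cells, 8 described here were lost without 1 or more single libraries. Id2 was 1.54 ± 0.37 higher in OT-I cells (adjusted p = 0.0193), a call lost without OT-I library 1 or SV40-I library 1 (adjusted p from 0.0746 to 0.0849). Klrk1 was 1.59 ± 0.40 higher (adjusted p = 0.0257), a call lost without OT-I library 2, OT-I library 3, SV40-I library 1 or SV40-I library 3 (adjusted p from 0.0693 to 0.104). Ccr2 was 4.87 ± 1.35 higher (adjusted p = 0.0405), or 5.5 without SV40-I library 2, a call lost without OT-I library 1, OT-I library 2, OT-I library 3, SV40-I library 2 or SV40-I library 3 (adjusted p from 0.066 to 0.107). These genes hold an inhibitor of E proteins, an activating receptor and a chemokine receptor. Il18r1 was 4.72 ± 1.29 higher (adjusted p = 0.038), or 6.53 without SV40-I library 2, a call lost without OT-I library 1, OT-I library 2, OT-I library 3, SV40-I library 1 or SV40-I library 3 (adjusted p from 0.0707 to 0.128). Cd69 was 2.29 ± 0.50 higher (adjusted p = 0.0123), or 3.00 without SV40-I library 2, a call lost without SV40-I library 3 (adjusted p = 0.0554). The other 3 were lower in OT-I cells. Entpd1 changed by -2.31 ± 0.52 (adjusted p = 0.0139), a call lost without OT-I library 1 or OT-I library 2 (adjusted p from 0.0633 to 0.065). Gzma changed by -2.41 ± 0.66 (adjusted p = 0.0384), a call lost without OT-I library 1, OT-I library 2, OT-I library 3, SV40-I library 2 or SV40-I library 3 (adjusted p from 0.082 to 0.15). Il2rb changed by -1.18 ± 0.34 (adjusted p = 0.0488), a call lost without any 1 of the 6 libraries (adjusted p from 0.0767 to 0.199).

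Among the genes lower in OT-I than in SV40-I cells were Tox, the inhibitory receptor genes Pdcd1, Lag3 and Tigit, and the costimulator gene Tnfrsf9. Tnfrsf9 stood at 1895, 1479 and 1323 CPM in SV40-I libraries (-6.08 ± 0.40, adjusted p = 5.8e-06), whereas OT-I and naive libraries overlapped. Tox stood at 703, 876 and 989 CPM there (-5.12 ± 0.41, adjusted p = 1.41e-05), so that OT-I libraries were the lowest of naive, OT-I and SV40-I libraries. Pdcd1 stood at 3531, 3136 and 5475 CPM (-5.29 ± 0.42, adjusted p = 1.41e-05), above the OT-I libraries, which in turn lay above the naive ones. Lag3 (-5.37 ± 0.51), Tigit (-4.03 ± 0.43), Ccl3 (-5.27 ± 0.49) and Ccl4 (-3.59 ± 0.31) showed the same order of the 3 groups, with adjusted p of 4.07e-05, 0.000101, 3.55e-05 and 2.24e-05. Egr1 was lower in OT-I cells (-3.05 ± 0.50, or -2.10 without SV40-I library 1, adjusted p = 0.00193). These groups differ in transgenic line as well as in specificity, which cannot be told apart. With OT-I library 1 as the only OT-I library, 12 of the 59 genes were higher and 7 lower.

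**Figure D5:**
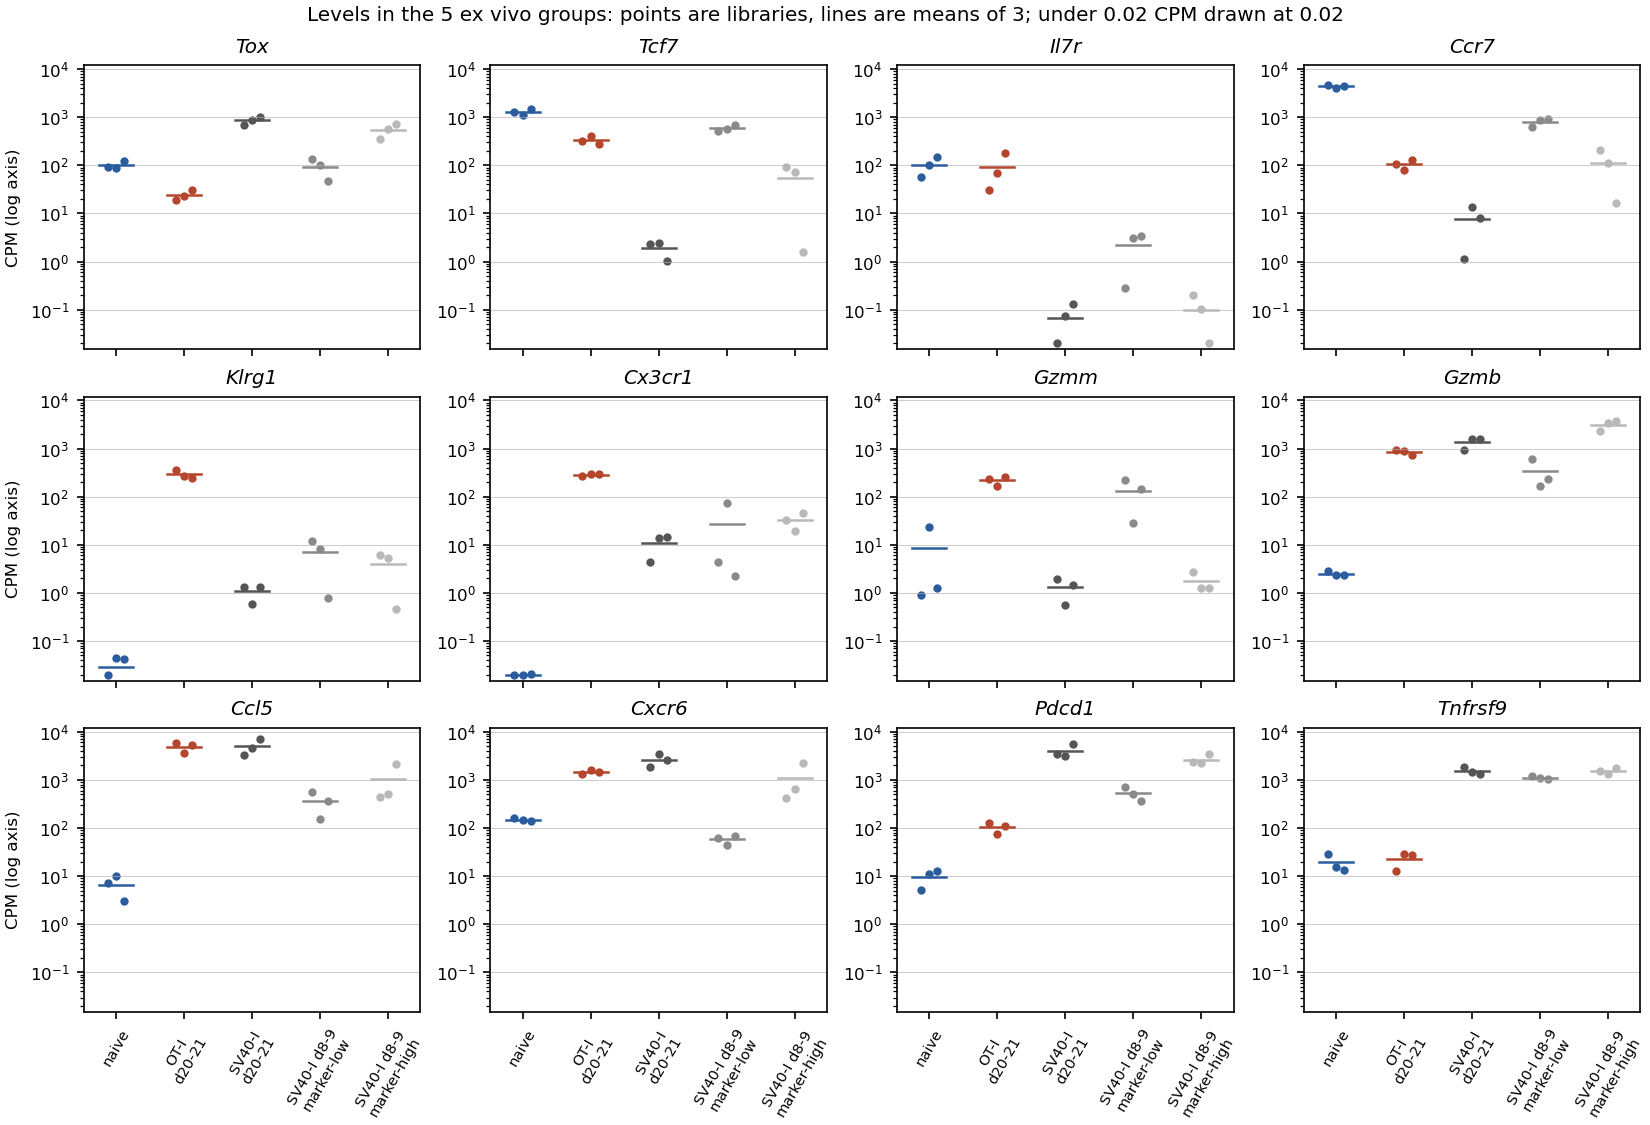
CPM of 12 genes in each library (points, log axis, values under 0.02 drawn at 0.02) with the mean of 3 (lines), in naive SV40-I, OT-I days 20 to 21, SV40-I days 20 to 21 and SV40-I days 8 to 9 marker-low and marker-high cells. OT-I points are the lowest of the 5 groups for Tox and the highest for Klrg1 and Cx3cr1, while for Ccl5 they overlap those of SV40-I cells of days 20 to 21.

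Across the 5 groups sorted from mice, Tox was ordered from OT-I (24.5 ± 6.13 CPM) through marker-low (93.7 ± 42.6) and naive (102 ± 19.2) to marker-high (552 ± 188) and SV40-I cells of days 20 to 21 (856 ± 144 CPM; SD, n = 3 each). Marker-low and naive libraries overlapped in that order, and so did marker-high and late SV40-I libraries. Il7r stood at 102 ± 45.2 CPM in naive, 92.6 ± 76.7 in OT-I, 2.25 ± 1.71 in marker-low, 0.10 ± 0.10 in marker-high and 0.0676 ± 0.0648 CPM in late SV40-I cells. Naive and OT-I cells, which overlapped, stood above the 3 other groups. Klrg1 stood at 289.7 ± 65.7 CPM in OT-I cells and at no more than 6.97 ± 5.72 CPM in the other groups.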

How the data were processed

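The deposited values are raw counts: a whole number of read pairs for each gene name of GENCODE M17 (build GRCm38). Per the file headers the authors made them with featureCounts 1.6.2, paired-end and with no strand option. RNA was amplified with a SMART-Seq kit, per the labels' protocols, and FastQC, STAR and DESeq2 are named in the submitters' processing notes. No molecular identifiers are named in these sources.

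Each table lists 53656 genes. The 260 receptor segments were left out of testing, and library sizes stayed those of the whole table. All 15 libraries sorted from mice were fitted together in R 4.3.3 with edgeR 4.0.16 (TMM, filterByExpr, robust quasi-likelihood F test), 1 coefficient per group, over 16247 genes. Adjusted p-values are Benjamini-Hochberg values over all tested genes. Fold changes are OT-I minus naive on the log2 scale with standard errors, those of genes near 0 depend on a prior count of 0.125, and a list's median covers its tested members. A gene without counts in a group has a lower bound against 3 counts over the group, and one with 1 to 3 counts a ratio with its exact 95% counting interval. Counts of replicates disagreed beyond counting error (chi-square over its degrees of freedom was 111 at least), so each library is its own sample. Alternatives used DESeq2 1.42.0. The code was tested on simulated data.

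The genes and the 33 lists (24 of T cells, 9 of other cells) were chosen with earlier results of these data known. Named genes are a fixed set of 59, up to 3 called members per T cell list and direction by p, and the 8 genes that rose most and the 8 that fell most, if called, with groups apart and a mean of 10 CPM or more in the higher one. Of 7 further list members, chosen after their values were seen, the single-library values were computed too. Some genes of the lists are not reported here by name, and the counts include them.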

Additional observations from a re-analysis of the deposited data

Results flagged for a closer look

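A receptor segment left out of the test carried signal. Trbv12-1, a variable segment of the T cell receptor beta chain, stood at a mean of 162.6 CPM in OT-I libraries (169, 151 and 168.0 CPM in libraries 1, 2 and 3) and at no more than 0.550 CPM in naive SV40-I libraries. Trbv29, another such segment, stood at 1869, 6226 and 3056 CPM in naive and at no more than 2.28 CPM in OT-I libraries.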

How the results depend on the processing

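The counts of 827 higher and 359 lower genes stayed within 1.5 times of these values with other size factors (RLE 799 and 366, upper quartile 772 and 389), without a filter on low counts, with a stricter one, with the segments kept, with mitochondrial and other-cell genes left out, in the fit of the 6 libraries (878 and 530) and with all 19 libraries (926 and 529). They moved to 1554 and 730 with DESeq2, to 382 and 140 with the level of the hepatocyte list as a covariate, to 380 and 92 without OT-I libraries 2 and 3, and to 426 and 147 where a fold of 2 had to be exceeded. Leaving out 1 library gave 540 to 654 higher and 178 to 221 lower genes; each of the 6 moved the lower count by over 1.5 times, and naive libraries 2 and 3 the higher count (545 and 540). Against late SV40-I cells the 23 higher and 11 lower genes became 12 and 7 without OT-I libraries 2 and 3 and ran from 17 to 21 and 8 to 10 without 1 library. The cause was not tested, beyond the fewer samples that some of these fits hold.

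The groups share replicate numbers, but same-numbered libraries did not deviate together (correlations of 0.0162, -0.0168 and 2e-04 over 16247 genes). With the replicate number as a block, 732 genes were higher and 314 lower. With that block in a fit of the 6 libraries, added after seeing the data, 462 were higher and 272 lower.

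Of 106 called genes, 85 kept their call without any single library, while 32 lost it without OT-I libraries 2 and 3, 28 with the hepatocyte covariate and 22 where a fold of 2 was needed. None changed direction under any setting run. Changes of direction occurred only in genes that were not called. Cd27 turned to -0.0019 (RLE and DESeq2), -0.051 (upper quartile), -0.037 (stricter filter), -0.014 (6 libraries), -0.044 (19 libraries), -0.0079 (replicate block) and -0.026 (block, 6 libraries), and ran from -0.14 (without OT-I library 1) to 0.17 (OT-I library 3) when 1 library was left out, with -0.053 for naive library 3. With the hepatocyte covariate Klf2 turned to -0.50, Mki67 to -0.61 and Tnfrsf9 to -0.53. Without OT-I libraries 2 and 3 Mki67 turned to -1.37 and Tnfrsf9 to -0.60. Without 1 library Il7r ran from -1.04 (OT-I 3) to 0.27 (OT-I 1), with 0.052 and 0.22 for OT-I 2 and naive 3. Klf2 ran from -0.15 (naive 3) to 0.59 (naive 2), with -0.10 for OT-I 1, and Cd69 from -0.20 (OT-I 2) to 0.13 (OT-I 1).

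With 250 bases before the start only, the T-box core was in 3.00% and the forkhead core in 2.24% of all windows.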

Other observations

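Stress and interferon genes, not described above, divided as follows, where of all tested genes 5.09% were higher and 2.21% lower. Of 12 dissociation and heat shock genes 4 were higher in OT-I cells and none lower (median 0.96, against 0.04 for all genes), among them the chaperone genes Hspa8, at 2324, 1188 and 2553 CPM in OT-I and 1000.1, 718 and 681 CPM in naive libraries (1.34 ± 0.30, adjusted p = 0.0155), and Hsph1, at 179.8, 143 and 222 against 33.7, 26 and 34.6 CPM (2.53 ± 0.55, adjusted p = 0.0127). The call of Hspa8 was lost without OT-I library 1, OT-I library 3, naive library 2 or naive library 3 (adjusted p from 0.0564 to 0.0717) and that of Hsph1 without naive library 1 or naive library 2 (adjusted p from 0.0505 to 0.0643). Atf3, a stress-induced factor gene, stood at 0.40, 2.71 and 0.704 against 0.0759, 0.0218 and 0.0208 CPM (4.88 ± 1.11, adjusted p = 0.0154), highest in OT-I library 2, without which the change was 3.69, and its call was lost without OT-I library 2, naive library 2 or naive library 3 (adjusted p from 0.0627 to 0.0753). With naive library 1 left out it was 5.72. Of the list, 7 of the 12 were called with DESeq2, and 1 with OT-I library 1 alone. Of 15 interferon response genes 1 was higher, the antiviral GTPase gene Mx1 at 28.2, 63 and 20.5 CPM in OT-I and 2.49, 1.55 and 5.27 CPM in naive libraries (3.58 ± 0.73, adjusted p = 0.00883), and the median was -0.38. Its call was lost with the hepatocyte list as a covariate (adjusted p = 0.128) and with OT-I library 1 alone (adjusted p = 0.091). The change of Mx1 was 2.97 without OT-I library 2 and 4.21 without naive library 3. Of 12 DNA methylation and Polycomb genes 1 was higher, Uhrf1, which guides methylation of new DNA (1.47 ± 0.29, adjusted p = 0.00719), and 1 lower, the demethylase gene Tet3 (-0.82 ± 0.22, adjusted p = 0.0349), whose call was lost without any 1 of the 6 libraries (adjusted p from 0.0554 to 0.141).

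Among markers of other cells, Zbtb7b, the factor that directs helper T cell fate, stood at 28.2, 28.1 and 29.8 CPM in OT-I and 0.873, 1.48 and 0.375 CPM in naive libraries (4.98 ± 0.69, adjusted p = 0.000606), while Cd4 stood at 2.09, 0.919 and 3.18 against 2.41, 0.98 and 1.21 CPM (adjusted p = 0.915). Itgax, an integrin gene of dendritic cells that effector T cells also express, stood at 429, 329.6 and 376 against 4.02, 1.2 and 1.65 CPM (7.36 ± 1.00, adjusted p = 0.000508). Ighm, the immunoglobulin M heavy chain gene, stood at 604, 590.3 and 637 CPM in OT-I and 2844, 2607 and 2653 CPM in naive libraries (-2.15 ± 0.18, adjusted p = 9.67e-06). Zbtb7b, Itgax and Ighm were chosen after their values were seen.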
